A study of Mus musculus with 3 samples.

Results

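The SLC25 carriers, proteins of the inner mitochondrial membrane that move nucleotides, phosphate, amino acids, carboxylates and cofactors between the cytosol and the matrix, were followed in 3 single-cell RNA libraries of mouse spleen CD4+ T cells. Members were the genes whose symbol begins with *Slc25a* and a digit and that had 10 or more UMIs (unique molecular identifiers, each standing for 1 captured transcript end) over the 3 libraries. Of 47 such symbols among 31053 genes, 39 passed, against 13898 genes in all at the same minimum. *Slc25a43*, with 120 UMIs, was the lowest member, and *Slc25a2*, with 5 UMIs, lay nearest below the minimum. *Slc25a34* had 4 UMIs and *Slc25a41* 3, and *Slc25a18*, *Slc25a21*, *Slc25a31*, *Slc25a48* and *Slc25a54* had 0.

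All cells came from C57BL/6 mice, were enriched for naïve CD4+ T cells and were sorted as live CD3+CD4+ cells. The unstimulated WT library (0hr-WT) was from Ift20 f/f cells kept in DPBS. The stimulated WT library (24hr-WT) was from Ift20 f/f cells stimulated for 24 h through CD3 and CD28 by antibodies at 1 μg/mL each. The stimulated IFT20-KO library (24hr-KO) had the same treatment and came from Ift20 f/f CD4 cre mice, in which Cre under the *Cd4* promoter removes *Ift20*. Cre also acts in the thymus, so the loss of *Ift20* preceded the culture, and the controls carry the floxed allele without Cre. The labels give no ages. With 1 library per group there was no test, and every interval is a 95% interval of counting error only.

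The carriers share a fold of repeated membrane helices and are made in the cytosol, then inserted by the TIM22 machinery. ADP/ATP carriers send ATP made by oxidative phosphorylation to the cytosol, and the phosphate carrier brings in the phosphate for it. In T cells, activation is known to raise mitochondrial mass and to draw on mitochondrial citrate, aspartate and one-carbon units for growth.

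Cells with more than 200 genes and mitochondrial UMIs under 15% were kept, which left 8031, 9903 and 13920 cells for 0hr-WT, 24hr-WT and 24hr-KO. They held 37133949, 116979076 and 106435143 UMIs, with medians of 4627, 12167 and 5014.5 per cell. Cells under 5000 UMIs made up 60.9%, 24.1% and 49.99% of the libraries. *Ift20* was at 64.4 UMIs per 1000000 UMIs of the library (CPM) in 0hr-WT, 76.0 in 24hr-WT and 6.60 in 24hr-KO, the lowest where the labels place the deletion. The 5 CD4 T cell markers summed to 2786 to 3458 CPM. *Pf4* and *Ppbp* were at 0 in every library, while *Cd8b1* was at 28.6, 9.04 and 11.2 CPM and *Cd8a* at 0.162, 0.120 and 0.291. Markers of B cells summed to 0.846 to 3.31 CPM and those of myeloid cells to 1.56 to 3.55. The libraries shared 125 to 207 barcodes in pairs.

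Summed over its 39 members, the family was at 1565 CPM (1553 to 1578) in 0hr-WT, 2754 (2744 to 2763) in 24hr-WT and 2749 (2739 to 2759) in 24hr-KO. The sum was 1.76-fold higher after stimulation and nearly equal between the stimulated genotypes. Since a UMI marks a transcript end, these levels were not divided by length. The family was uneven. Its 3 most abundant members in each library took 61.2%, 73.7% and 72.4% of its UMIs.

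*Slc25a5* encodes ADP/ATP carrier 2, the form of dividing cells, and lies on chromosome X of GRCm38 at 36795651 to 36798807, forward strand. It was at 394 CPM (388 to 400.4) in 0hr-WT, 985 (979 to 991) in 24hr-WT and 909 (903 to 915) in 24hr-KO. *Slc25a3*, the phosphate carrier gene on chromosome 10 at 91116574 to 91124059, reverse strand, had 480.3 CPM (473 to 487), 846 (840.3 to 851) and 864 (858 to 869.7). No other member exceeded 216 CPM in any library. Their order differed between libraries: *Slc25a3* was the higher in 0hr-WT and *Slc25a5* in the stimulated libraries. *Slc25a5* went from 25.2% to 35.8% of the family with stimulation, while *Slc25a3* stayed at 30.7%.

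**Figure D1:**
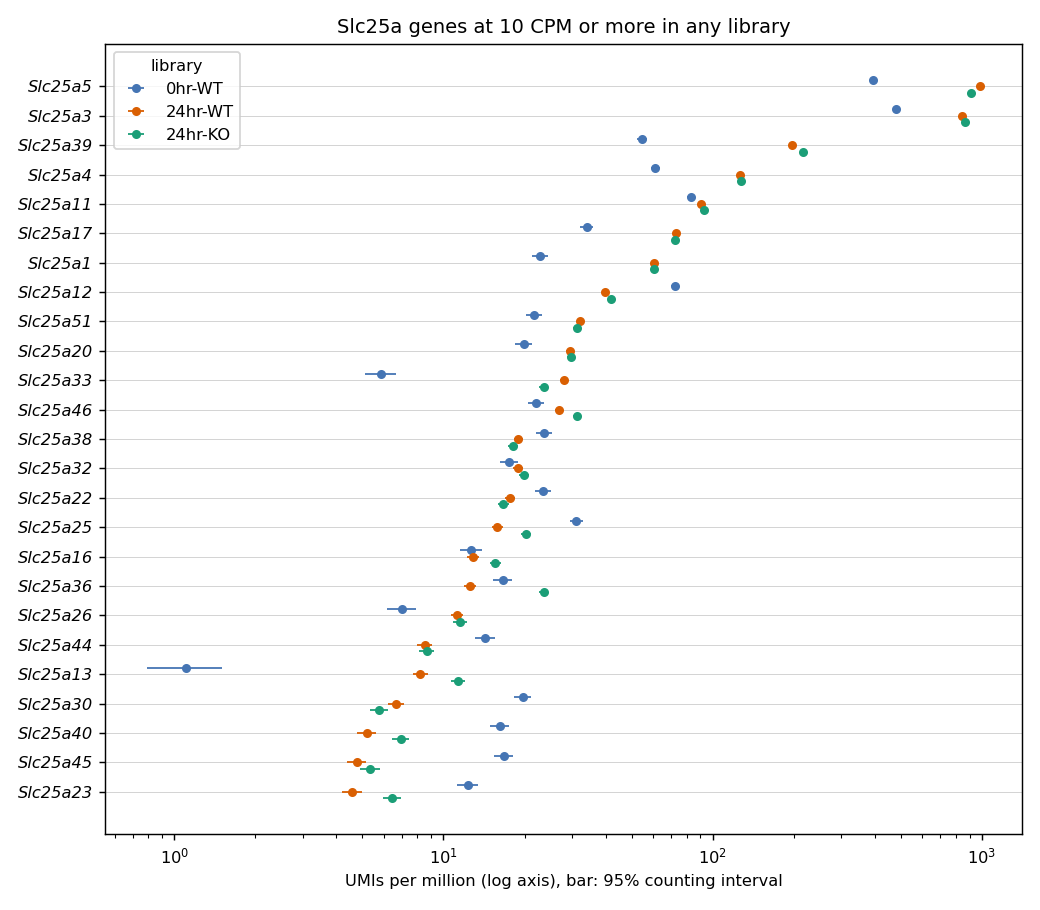
CPM (log axis) of 25 members at 10 CPM or more in any library, with a point for each library and bars for 95% counting intervals. *Slc25a5* and *Slc25a3* lie far to the right of the other members, the stimulated libraries (orange and green) lie close together for most genes, and *Slc25a13* and *Slc25a33* show the widest gap between 0hr-WT (blue, 1.10 and 5.84 CPM) and the stimulated libraries.

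The first comparison asked how stimulation through the T cell receptor and CD28 changed the carriers in WT cells. A gene was counted as higher or lower where its log2 ratio, 24hr-WT over 0hr-WT, lay 1 or more (2-fold) from the median of all 11298 genes with at least 100 UMIs, which was −0.042. By that count 8 members were higher and 8 lower, each 20.5% of the 39, against 19.8% of all genes higher and 18.6% lower, so the shares were near the background. The members' median log2 ratio was 0.0067, with values from −2.72 to 2.89. The summed log2 ratio of 0.81 (0.80 to 0.83) therefore comes from the few abundant carriers, and 20 members were above 0 and 19 below.

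The carriers of ATP production were higher. The log2 ratio was 1.32 (1.30 to 1.35) for *Slc25a5* and 0.82 (0.79 to 0.84) for *Slc25a3*, which was short of the fold. *Slc25a4*, ADP/ATP carrier 1, went from 61.3 CPM (58.8 to 63.9) in 0hr-WT to 127 (125 to 129) in 24hr-WT, a log2 ratio of 1.05 (0.98 to 1.11), and was at 127 (125 to 129.6) in 24hr-KO. The calcium-regulated carriers that exchange ATP-magnesium for phosphate, which set the size of the matrix adenine nucleotide pool, went the other way.

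*Slc25a25* was at 31.2 CPM (29.4 to 33.03) in 0hr-WT, 15.8 (15.1 to 16.6) in 24hr-WT and 20.2 (19.4 to 21.1) in 24hr-KO, a log2 ratio for stimulation of −0.98 (−1.08 to −0.87). *Slc25a23* was at 12.3 (11.2 to 13.5), 4.58 (4.20 to 4.99) and 6.44 (5.96 to 6.94) CPM, with −1.43 (−1.61 to −1.24). *Slc25a24* was counted on few UMIs, with 269 in 0hr-WT, 139 in 24hr-WT and 105 in 24hr-KO, and −2.61 (−2.91 to −2.31). Of the 6 members of this substrate group, 2 were higher and 2 lower past the fold, against 19.8% and 18.6% of all genes. The group as a whole took 63.0% and then 71.9% of the family's UMIs.

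Opposite directions also occurred within pairs of carriers for the same substrate. The aspartate/glutamate carriers serve the malate-aspartate shuttle and export aspartate. *Slc25a12* (aralar), on chromosome 2 at 71271063 to 71367749, reverse strand, was at 72.5 CPM (69.8 to 75.3) in 0hr-WT, 39.9 (38.8 to 41.1) in 24hr-WT and 41.9 (40.7 to 43.2) in 24hr-KO. *Slc25a13* (citrin), on chromosome 6 at 6041218 to 6217173, reverse strand, was at 1.10 CPM (0.792 to 1.498), 8.19 (7.68 to 8.72) and 11.3 (10.7 to 11.99). Its 41 UMIs in 0hr-WT against 958 in 24hr-WT gave a log2 ratio of 2.89 (2.44 to 3.38), the highest of the 39, while that of *Slc25a12* was −0.86 (−0.93 to −0.79). *Slc25a12* was still the more abundant in each library.

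Pyrimidine nucleotides enter the matrix for mitochondrial DNA and RNA synthesis through the products of *Slc25a33* and *Slc25a36*. *Slc25a33*, on chromosome 4 at 149744036 to 149774277, reverse strand, was at 5.84 CPM (5.09 to 6.68) in 0hr-WT, 28.1 (27.2 to 29.1) in 24hr-WT and 23.6 (22.7 to 24.5) in 24hr-KO. *Slc25a36*, on chromosome 9 at 97074961 to 97111157, reverse strand, was at 16.6 (15.3 to 17.98), 12.6 (11.9 to 13.2) and 23.6 (22.7 to 24.5) CPM. The log2 ratios for stimulation were 2.27 (2.07 to 2.47) and −0.40 (−0.54 to −0.26), and *Slc25a36* was the higher of the pair in 0hr-WT and *Slc25a33* in 24hr-WT. The direction of *Slc25a36* depended on the setting. Its ratio was 0.23 as the mean of per-cell fractions and 0.89 in cells thinned to 1400 UMIs, where the medians of all genes were 0.042 and 0.18. In UMIs per cell it was 0.95, which was below the median of all genes there, 1.31, as it was in CPM.

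Glutathione enters the matrix through the products of *Slc25a39* and *Slc25a40*. *Slc25a39*, on chromosome 11 at 102402985 to 102407946, reverse strand, was at 54.8 CPM (52.4 to 57.2) in 0hr-WT, 198 (195 to 200.4) in 24hr-WT and 216 (213 to 219) in 24hr-KO. *Slc25a40*, on chromosome 5 at 8422850 to 8454797, forward strand, was at 16.2 (14.9 to 17.5), 5.18 (4.78 to 5.61) and 6.92 (6.43 to 7.44) CPM. With log2 ratios of 1.85 (1.79 to 1.92) and −1.64 (−1.81 to −1.48), these partners moved apart, and *Slc25a39* became the third most abundant member.

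Among the carboxylate carriers, *Slc25a1*, which exports citrate for lipid synthesis, was at 22.8 CPM (21.3 to 24.4) in 0hr-WT, 60.7 (59.3 to 62.1) in 24hr-WT and 60.6 (59.2 to 62.1) in 24hr-KO, a log2 ratio for stimulation of 1.41 (1.31 to 1.52). *Slc25a11*, the oxoglutarate/malate carrier of the malate-aspartate shuttle, was at 83.0 (80.1 to 86.0), 90.5 (88.8 to 92.2) and 92.5 (90.7 to 94.3) CPM, and its log2 ratio was 0.12 (0.066 to 0.18). The dicarboxylate carrier gene *Slc25a10* had 6.33, 6.45 and 7.36 CPM. Of the 3 carboxylate carriers, only *Slc25a1* passed the fold, where 19.8% of all genes were higher and 18.6% lower.

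The amino acid carriers went both ways. Of 7 members, 2 were higher past the fold (*Slc25a13* and the ornithine carrier gene *Slc25a15*) and 1 lower (*Slc25a29*, for basic amino acids). Over all genes, 19.8% were higher and 18.6% lower. *Slc25a29* had 364 UMIs in 0hr-WT (9.80 CPM) and 486 in 24hr-WT (4.15 CPM). *Slc25a15* had 116 and 714 UMIs, or 3.12 and 6.10 CPM. The group's summed CPM went from 148 to 104 with a log2 ratio of −0.51, which in UMIs per cell turned to above 0 with the shift of all genes given below. *Slc25a38*, for glycine at the start of haem synthesis, had 23.6 CPM (22.1 to 25.3), 18.99 (18.2 to 19.8) and 18.1 (17.3 to 18.9) in 0hr-WT, 24hr-WT and 24hr-KO. *Slc25a22*, for glutamate, had 23.4 (21.9 to 25.01), 17.7 (16.9 to 18.5) and 16.7 (15.9 to 17.5), and *Slc25a44*, for branched-chain amino acids, had 14.3, 8.51 and 8.65.

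Cofactor carriers were mostly level or modestly higher. *Slc25a17*, the peroxisomal carrier of coenzyme A and related cofactors, was at 34.0 CPM (32.1 to 35.9) in 0hr-WT, 72.9 (71.4 to 74.5) in 24hr-WT and 72.6 (71.0 to 74.3) in 24hr-KO, a log2 ratio of 1.10 (1.02 to 1.19). Apart from *Slc25a39* and *Slc25a40*, the other cofactor carriers at 10 CPM or more were within the fold. *Slc25a51*, for NAD, had 21.7, 32.3 and 31.2 CPM. *Slc25a26*, for S-adenosylmethionine, had 7.00, 11.2 and 11.5 CPM, and *Slc25a32*, for folate, had 17.5, 18.9 and 19.96. *Slc25a16* had 12.7, 12.9 and 15.6 CPM. The mitoferrin genes for iron import, *Slc25a37* and *Slc25a28*, had 813 and 480 UMIs in 24hr-WT, with log2 ratios of 0.50 (0.26 to 0.74) and −0.39 (−0.63 to −0.15).

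*Slc25a20*, for acylcarnitines in fatty acid oxidation, had 19.9, 29.4 and 29.9 CPM, and *Slc25a46*, an outer membrane member of mitochondrial dynamics, had 22.1, 26.9 and 31.2. Relatives of the uncoupling proteins were lower or level. *Slc25a30* was at 19.7 CPM (18.3 to 21.2) in 0hr-WT, 6.68 (6.22 to 7.16) in 24hr-WT and 5.77 (5.32 to 6.24) in 24hr-KO, a log2 ratio of −1.56 (−1.71 to −1.41). *Slc25a27* had 265, 127 and 160 UMIs, with the lowest log2 ratio of the family at −2.72 (−3.03 to −2.41), and *Slc25a14* had 216, 674 and 582 UMIs. *Slc25a45* was at 16.7 (15.4 to 18.1), 4.75 (4.37 to 5.17) and 5.35 (4.92 to 5.80) CPM, with −1.81 (−1.98 to −1.65). *Slc25a35* had 193, 260 and 249 UMIs and was also lower. Members with no substrate assigned here and under 2 CPM, *Slc25a43*, *Slc25a47* and *Slc25a53*, had 17 to 63 UMIs in 0hr-WT and 44 to 161 in 24hr-WT, and their counting intervals included 0.

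**Figure D2:**
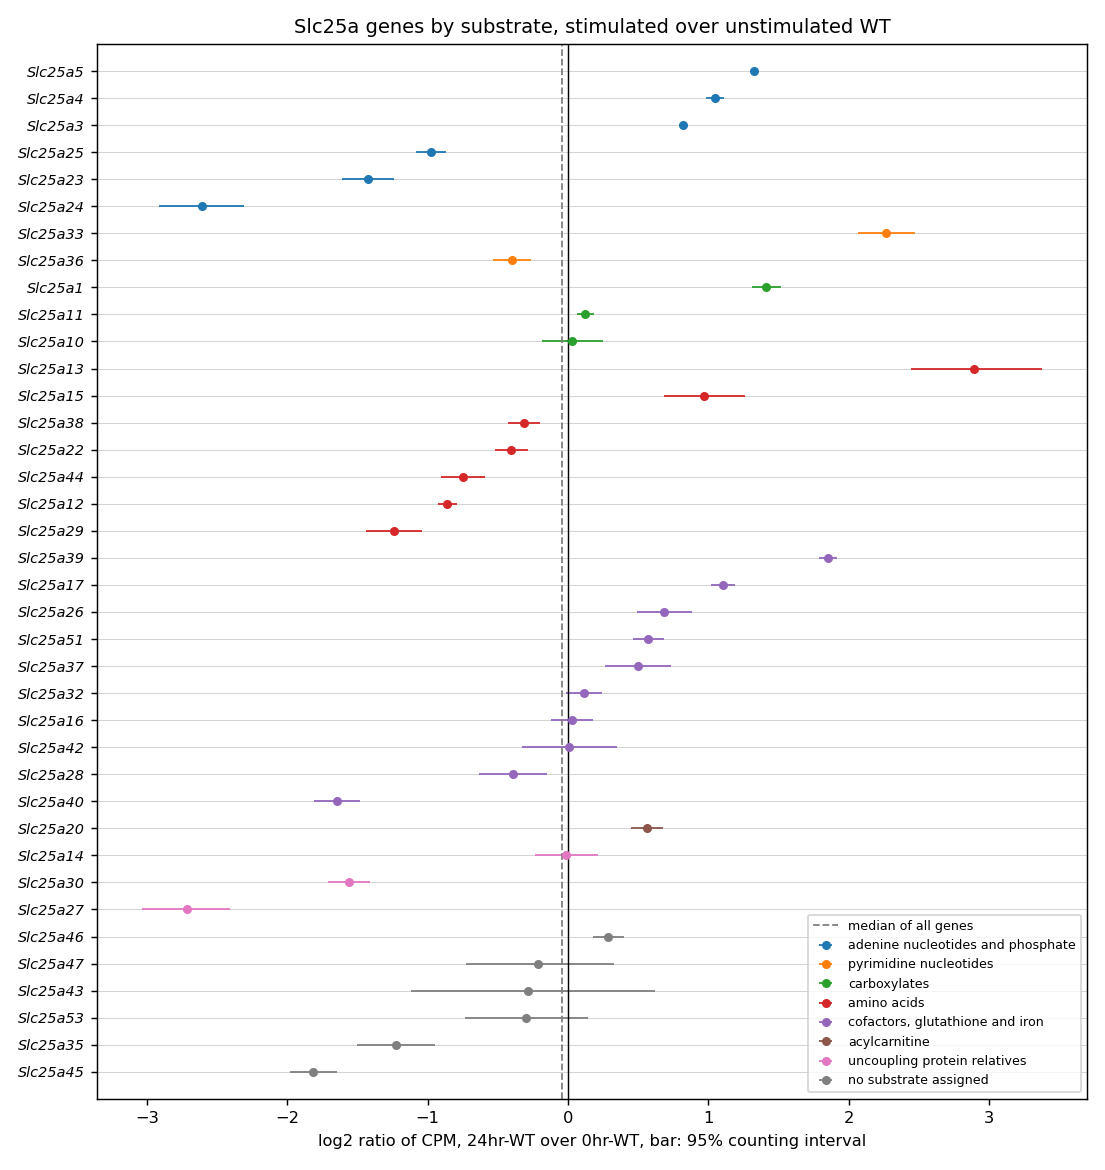
Log2 ratio of CPM, 24hr-WT over 0hr-WT, for 38 members grouped by substrate (colours), with bars for 95% counting intervals, a line at 0 and a dashed line at the median of all genes (−0.042). Adenine nucleotide and phosphate carriers lie on both sides of the lines, from *Slc25a5* at 1.32 to *Slc25a24* at −2.61, as do the pyrimidine, amino acid and cofactor groups. The points of the 3 carboxylate carriers are above 0 and those of the 3 relatives of the uncoupling proteins below. Among these, the bars of *Slc25a10* (0.028) and *Slc25a14* (−0.014) cross 0.

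Scaling by 1 factor per library moves all genes of a comparison alike and leaves values relative to the median of all genes as they were. Median-ratio scaling moved that median from −0.042 to 0.091 for stimulation and from 0.13 to −0.033 for IFT20-KO over WT. In UMIs per cell, which leaves depth in, it was 1.31 and −0.50. Directions are therefore those of CPM and were read against the median of all genes. In cells of 5000 to 20000 UMIs depth was nearer but not matched for stimulation, with 2966 cells of 0hr-WT and 1253 of 24hr-WT below 10000 UMIs and 173 and 5098 above. The log2 ratio there was 1.25 for *Slc25a5*, 1.78 for *Slc25a39*, 2.62 for *Slc25a13* and 2.22 for *Slc25a33*. For *Slc25a12* it was −0.78, for *Slc25a40* −1.79 and for *Slc25a36* −0.78.

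Promoter sequence was read for the members as a feature that the choice of genes had not used. RefSeq windows on GRCm38.p6, from 250 bases before to 50 after the start of a transcript, matched 30 of the 39 members with 39 windows. The E-box CACGTG, a palindrome that MYC/MAX and related helix-loop-helix factors are known to bind, was in 7 of these windows (17.9%), against 7.15% of all 32851 windows. Its letters cannot overlap those of the ETS core or CCAAT below. It was in 6 members, as overlapping windows of *Slc25a14* hold the same site, which the count of windows takes more than once. A further window of *Slc25a14* and the other window of *Slc25a15*, chr8:22398572-22398871, do not hold it. Of the 6 members, *Slc25a13*, *Slc25a33*, *Slc25a1* and *Slc25a15* were higher past the fold with stimulation, and *Slc25a14* and *Slc25a36* were not. Of the 24 matched members without the E-box, 4 were higher and 6 lower. Over all genes 19.8% were higher and 18.6% lower, and the response of all genes with the E-box was not counted. The median log2 ratio was 1.19 for the 6 members with it and −0.29 for the 24 without, which is a description of few genes and was not tested.

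The E-box windows of the members that were higher are shown first, and that of *Slc25a36*, which was not higher, last. They were chosen after the values were seen. Capitals mark CACGTG, and each window runs 5′ to 3′ along the gene, which is on the reverse strand in all 5 cases.
*Slc25a13*, chr6:6217124-6217423, reverse strand: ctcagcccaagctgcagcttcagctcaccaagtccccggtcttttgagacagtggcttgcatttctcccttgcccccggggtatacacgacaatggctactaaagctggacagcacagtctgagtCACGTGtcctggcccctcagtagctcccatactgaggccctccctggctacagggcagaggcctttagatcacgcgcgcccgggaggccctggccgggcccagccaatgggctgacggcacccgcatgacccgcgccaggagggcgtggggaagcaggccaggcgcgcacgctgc
*Slc25a33*, chr4:149774218-149774517, reverse strand: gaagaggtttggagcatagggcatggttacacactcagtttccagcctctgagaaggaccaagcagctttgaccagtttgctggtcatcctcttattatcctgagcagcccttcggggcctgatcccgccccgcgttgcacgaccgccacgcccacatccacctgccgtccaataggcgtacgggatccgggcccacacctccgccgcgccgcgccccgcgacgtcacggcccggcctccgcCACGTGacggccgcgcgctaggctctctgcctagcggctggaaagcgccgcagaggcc
*Slc25a1*, chr16:17928170-17928469, reverse strand: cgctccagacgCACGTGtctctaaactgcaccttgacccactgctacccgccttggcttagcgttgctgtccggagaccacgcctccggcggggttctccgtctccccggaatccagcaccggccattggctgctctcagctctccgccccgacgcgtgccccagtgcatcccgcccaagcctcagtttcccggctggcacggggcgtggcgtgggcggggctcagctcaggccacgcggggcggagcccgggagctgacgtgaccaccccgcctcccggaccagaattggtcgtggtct
*Slc25a15*, chr8:22398228-22398527, reverse strand: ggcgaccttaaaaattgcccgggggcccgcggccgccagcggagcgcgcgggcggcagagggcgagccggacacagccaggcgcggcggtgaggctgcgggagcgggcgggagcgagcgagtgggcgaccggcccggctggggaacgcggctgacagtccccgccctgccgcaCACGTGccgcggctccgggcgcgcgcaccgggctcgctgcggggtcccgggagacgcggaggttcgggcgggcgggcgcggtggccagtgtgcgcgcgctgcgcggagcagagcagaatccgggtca
*Slc25a36*, chr9:97110992-97111291, reverse strand: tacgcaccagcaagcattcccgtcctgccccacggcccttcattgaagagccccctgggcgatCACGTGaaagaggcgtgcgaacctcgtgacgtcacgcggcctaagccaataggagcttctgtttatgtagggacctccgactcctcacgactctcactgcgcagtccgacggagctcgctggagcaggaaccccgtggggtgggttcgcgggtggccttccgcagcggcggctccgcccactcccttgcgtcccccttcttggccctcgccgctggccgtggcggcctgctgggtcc

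Counted from the transcript start, the E-box began at −125 in *Slc25a13*, −8 in *Slc25a33*, −239 in *Slc25a1*, −77 in *Slc25a15* and −187 in *Slc25a36*. The ETS core CCGGAAG, searched on both strands, was in 6 members (*Slc25a3*, *Slc25a4*, *Slc25a17*, *Slc25a20*, *Slc25a25* and *Slc25a38*), or 15.4% of the windows against 8.86% of all. CCAAT was in 17 members, or 51.3% of windows against 37.4%, and GCATGCGC was in 0 member windows against 2.71% of all. Members' windows had a median GC content of 60.0%, above the 52.7% of all windows. A match says nothing of binding in these cells.

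The second comparison set the stimulated IFT20-KO library against the stimulated WT library, the question being what the loss of IFT20 does to activated cells. Here the carriers differed little. The summed log2 ratio was −0.0026 (−0.0099 to 0.0046), whose sign turned in some of the other settings. A gene was counted where it lay 0.3 or more on the log2 scale from the median of all genes, 0.13. By that count 6 members were higher (15.4%) and 3 lower (7.69%), against 18.1% and 8.73% of all genes, again near the background. The members' median log2 ratio of 0.071, below 0 with median-ratio scaling and in UMIs per cell, was 0.056 under the median of all genes.

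*Slc25a36* had the highest ratio of the members, at 12.6 CPM in 24hr-WT and 23.6 in 24hr-KO. Its log2 ratio of 0.91 (0.81 to 1.00) exceeded that of 97.9% of all genes, and it ranged from 0.28 to 1.16 over the other settings. Its partner *Slc25a33*, at 28.1 and 23.6 CPM, had −0.25 (−0.33 to −0.18), so the ratios of the pyrimidine carriers had opposite signs, and their levels were both 23.6 CPM in 24hr-KO. In cells of 5000 to 20000 UMIs, where 24hr-KO and 24hr-WT are matched more closely in depth, the log2 ratios were 0.43 and −0.18. In narrower bands of UMIs per cell, *Slc25a33* had −0.17 (−0.26 to −0.073) from 10000 to 20000, or −0.21 from the median of all genes there. In each other band its interval included 0.

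*Slc25a13* was at 8.19 CPM in 24hr-WT and 11.3 in 24hr-KO, a log2 ratio of 0.47 (0.34 to 0.59). In cells of 5000 to 20000 UMIs it had 0.45. Its interval lay above 0 in each band from 2500 to 20000 UMIs. It had 0.43 (−0.066 to 0.94) under 2500 and 0.048 (−0.26 to 0.34) at 20000 or more. *Slc25a23* had 0.49 (0.32 to 0.66), and 0.35 in cells of 5000 to 20000 UMIs. Its interval included 0 in each band under 10000 UMIs, with 0.079 (−0.36 to 0.52) from 5000 to 10000, and lay above 0 in the others. Counted in UMIs per cell, *Slc25a13* was at −0.16 and *Slc25a23* at −0.14, where the median of all genes was −0.50. *Slc25a40* and *Slc25a25*, both within the fold of the median of all genes, had 0.42 (0.26 to 0.58) and 0.35 (0.26 to 0.44). In cells of 5000 to 20000 UMIs they had 0.23 and −0.037. The value of *Slc25a25* was thus not kept in that window. By bands of UMIs per cell, *Slc25a40* had −0.54 (−0.99 to −0.078) under 2500, a band not matched in depth. From 10000 to 20000 it had 0.27 (0.047 to 0.50), and in the other bands its interval included 0. *Slc25a16* and *Slc25a46*, also within the fold, had 0.27 (0.17 to 0.37) and 0.22 (0.14 to 0.29). Among members under 10 CPM, *Slc25a42*, for coenzyme A, had 307 UMIs in 24hr-WT and 488 in 24hr-KO with 0.80 (0.60 to 1.02). By UMIs per cell, *Slc25a42* had 0.73 (0.44 to 1.02) from 10000 to 20000 and 0.65 (0.055 to 1.22) at 20000 or more. In each lower band its interval included 0. *Slc25a27*, with 127 and 160 UMIs, had 0.47 (0.12 to 0.82), and its interval included 0 in each band. *Slc25a43* had 44 and 59 UMIs, with an interval over all kept cells that included 0.

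On the lower side, *Slc25a30* had −0.21 (−0.37 to −0.056), and −0.25 in cells of 5000 to 20000 UMIs. *Slc25a24*, with 139 and 105 UMIs, had −0.27 (−0.65 to 0.11), whose interval included 0. By UMIs per cell, it had −0.995 (−2.01 to −0.0025) from 5000 to 10000, on 21 and 17 UMIs. From 10000 to 20000 it had −0.61 (−1.21 to −0.039), on 74 and 40 UMIs. In the other bands its interval included 0. *Slc25a5* had −0.12 (−0.13 to −0.10) over all kept cells but −0.025 in cells of 5000 to 20000 UMIs. *Slc25a22* and *Slc25a38* had −0.086 (−0.18 to 0.0058) and −0.069 (−0.16 to 0.019). The abundant *Slc25a3*, *Slc25a39*, *Slc25a4*, *Slc25a11*, *Slc25a17*, *Slc25a1* and *Slc25a12* lay between −0.0058 and 0.13.

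**Figure D3:**
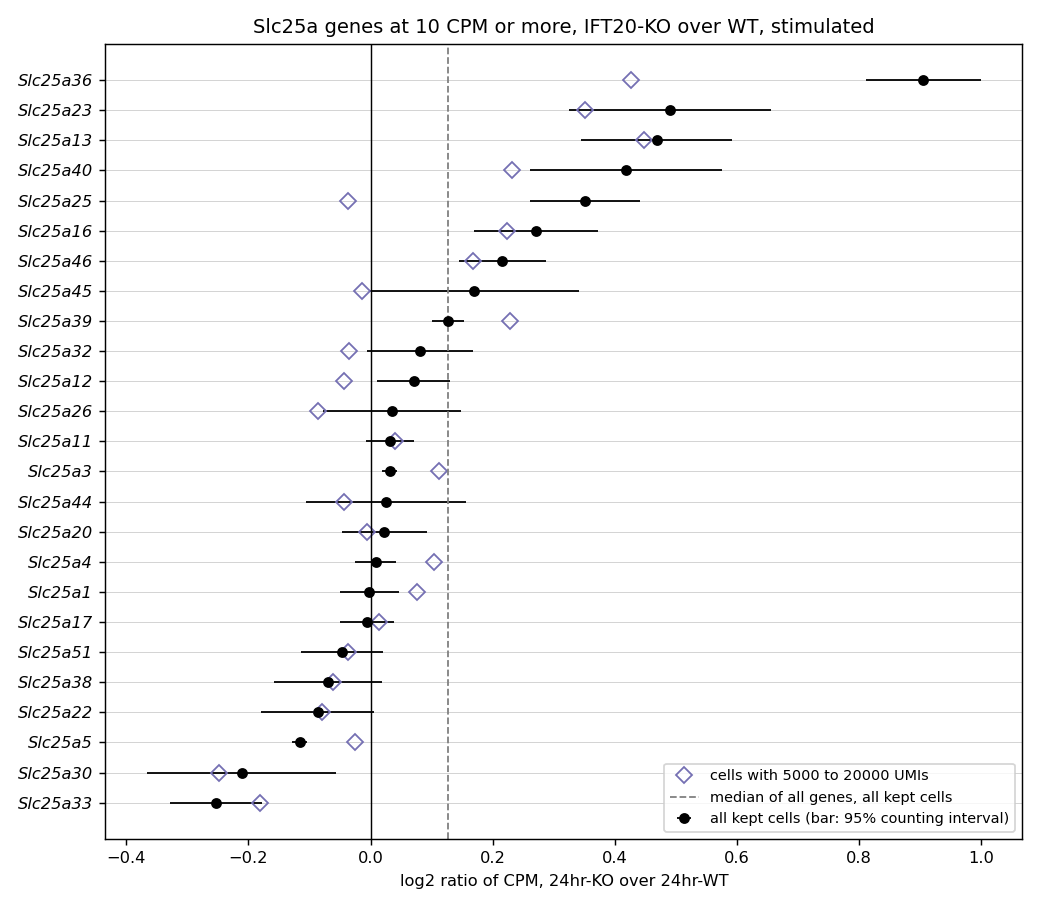
Log2 ratio of CPM, 24hr-KO over 24hr-WT, for 25 members at 10 CPM or more in any library, over all kept cells (filled points, bars for 95% counting intervals) and in cells of 5000 to 20000 UMIs (open diamonds). The dashed line is the median of all genes over all kept cells (0.13). *Slc25a36* is farthest right at 0.91 and lies at 0.43 in the cells of 5000 to 20000 UMIs, and *Slc25a25* goes from 0.35 to −0.037, while both values of *Slc25a33* are below 0. In UMIs per cell, which leaves depth in, all points shift left alike, and of the 25 only *Slc25a36* stays above 0.

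Levels depended on how many UMIs a cell had, and cells under 5000 UMIs were 24.1% of 24hr-WT and 49.99% of 24hr-KO. The lowest barcode had 500 UMIs in 0hr-WT, 709 in 24hr-WT and 1493 in 24hr-KO. Cells under 2500 UMIs are therefore not matched in depth between libraries, and their mitochondrial UMIs were 9.95% in 24hr-WT and 5.35% in 24hr-KO. Within 24hr-WT, cells under 5000 UMIs held 1928 CPM of the family against 2789 in the other cells, a log2 ratio of −0.53 (−0.56 to −0.50). Within 24hr-KO the values were 2303 and 2839 CPM, and −0.30 (−0.32 to −0.29). In 0hr-WT they were nearly equal, at 1533 and 1593 CPM. The share of mitochondrial UMIs moved with this: it was 9.19% in the stimulated WT cells under 5000 UMIs and 1.29% in the others, and 5.36% and 1.16% in 24hr-KO. Its part in the result was not tested.

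*Slc25a36* varied most. In 24hr-WT it was at 88.4 CPM in cells under 5000 UMIs and 9.35 in the others, a log2 ratio of 3.24 (3.07 to 3.41), above 98.3% of all genes. In 24hr-KO it was at 80.4 and 12.1 CPM, or 2.73 (2.61 to 2.84) on the log2 scale, above 98.7% of all genes. In 0hr-WT it was at 17.5 and 15.9 CPM, with 0.15 (−0.087 to 0.38), an interval that included 0. The 0hr-WT cells under 5000 UMIs were uneven, however. Among them *Slc25a36* was at 78.1 CPM (63.6 to 95.04) under 2500 UMIs and 12.6 (10.9 to 14.4) from 2500 to 5000. A high level of *Slc25a36* at low UMIs was thus not particular to the stimulated libraries. Its difference between genotypes within narrower bands was smaller than over all cells: −0.36 (−0.57 to −0.16) under 2500 UMIs, 0.22 (−0.070 to 0.53) from 2500 to 5000, 0.44 (0.093 to 0.80) from 5000 to 10000, 0.41 (0.26 to 0.57) from 10000 to 20000 and 0.063 (−0.26 to 0.38) above. The value of 0.91 over all cells was thus larger than in any band, and only 2 of the bands lay above 0 by more than counting error.

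The response of *Slc25a36* to stimulation also turned with the band. It was 0.28 (−0.049 to 0.62) under 2500 UMIs, 2.55 (2.19 to 2.90) from 2500 to 5000 and −0.997 (−1.47 to −0.49) from 10000 to 20000, where the medians of all genes were −0.079, 0.50 and −0.14. In these bands *Slc25a25* had −0.79 (−1.10 to −0.47), 0.54 (0.13 to 0.92) and −1.08 (−1.45 to −0.69), and *Slc25a40* had −1.25 (−1.77 to −0.73), 0.55 (−0.028 to 1.09) and −1.77 (−2.30 to −1.19). From 5000 to 10000 UMIs *Slc25a36* had −0.70 (−1.04 to −0.36), *Slc25a25* −0.90 (−1.17 to −0.63) and *Slc25a40* −1.89 (−2.40 to −1.42). The median of all genes there was −0.058, with 2966 cells of 0hr-WT and 1253 of 24hr-WT. From 2500 to 5000 UMIs *Slc25a25* and *Slc25a40* were thus near the median of all genes, and in the other bands given here below it. The band from 2500 to 5000 UMIs held 3836 cells of 0hr-WT and 434 of 24hr-WT, with mitochondrial UMIs at 2.34% and 7.43%. It thus does not set like cells side by side, and the part of this in the ratios was not tested. *Slc25a36* was above the median of all genes in the bands under 5000 UMIs and below it from 5000 to 20000. By contrast *Slc25a13*, *Slc25a33* and *Slc25a39* were above 0 in each band up to 20000 UMIs, and *Slc25a12* was below 0 in each. Only 4 unstimulated cells had 20000 UMIs or more, so that band gives no comparison.

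Counted at 1 or more on the log2 scale from the median of all genes (0.71), 7 of 39 members (17.9%) were higher in the cells under 5000 UMIs of 24hr-WT and 9 (23.1%) lower, against 21.8% and 22.3% of all genes. In 24hr-KO, with a median of all genes of 0.60, they were 4 (10.3%) and 5 (12.8%), against 15.8% and 12.3%. The shares were thus near or under the background. The higher members in 24hr-KO were *Slc25a24*, *Slc25a25*, *Slc25a27* and *Slc25a36*, and all 4 were among the 7 of 24hr-WT, with *Slc25a40*, *Slc25a47* and *Slc25a53*. The lower ones were *Slc25a1*, *Slc25a3*, *Slc25a5*, *Slc25a33* and *Slc25a39*, and all 5 were among the 9 of 24hr-WT, with *Slc25a4*, *Slc25a10*, *Slc25a11* and *Slc25a51*. Some of these had few UMIs in the 24hr-WT cells under 5000 UMIs, such as *Slc25a47* with 16, *Slc25a24* with 21 and *Slc25a10* with 22. The interval of *Slc25a10* there, −1.19 to 0.10, included 0. How far such calls are shared between the libraries over all genes was not counted.

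*Slc25a5* was at 463 CPM in the 24hr-WT cells under 5000 UMIs and 1007 in the others, and at 613 and 969 CPM in 24hr-KO. Its log2 ratio of 24hr-KO over 24hr-WT ran from 0.54 (0.45 to 0.62) under 2500 UMIs, a band not matched in depth, to −0.088 (−0.12 to −0.058) at 20000 or more. For the summed family it went from 0.28 (0.24 to 0.32) to −0.0095 (−0.028 to 0.0084) over the same bands. In between it was 0.12 (0.097 to 0.14) from 5000 to 10000 UMIs and 0.068 (0.059 to 0.077) from 10000 to 20000. From the lowest band up, the medians of all genes were −0.10, 0.076, 0.075, 0.040 and 0.0031. Those of the members were −0.16, 0.23, 0.081, −0.0034 and 0.048. The summed family was thus higher in 24hr-KO in each band under 20000 UMIs, where from 2500 UMIs up all genes shifted the same way. The members' median was below 0 under 2500 UMIs and from 10000 to 20000. Low-UMI cells, in which the family was lower, were a larger share of 24hr-KO. Their part in the ratio over all cells was not tested.

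**Figure D4:**
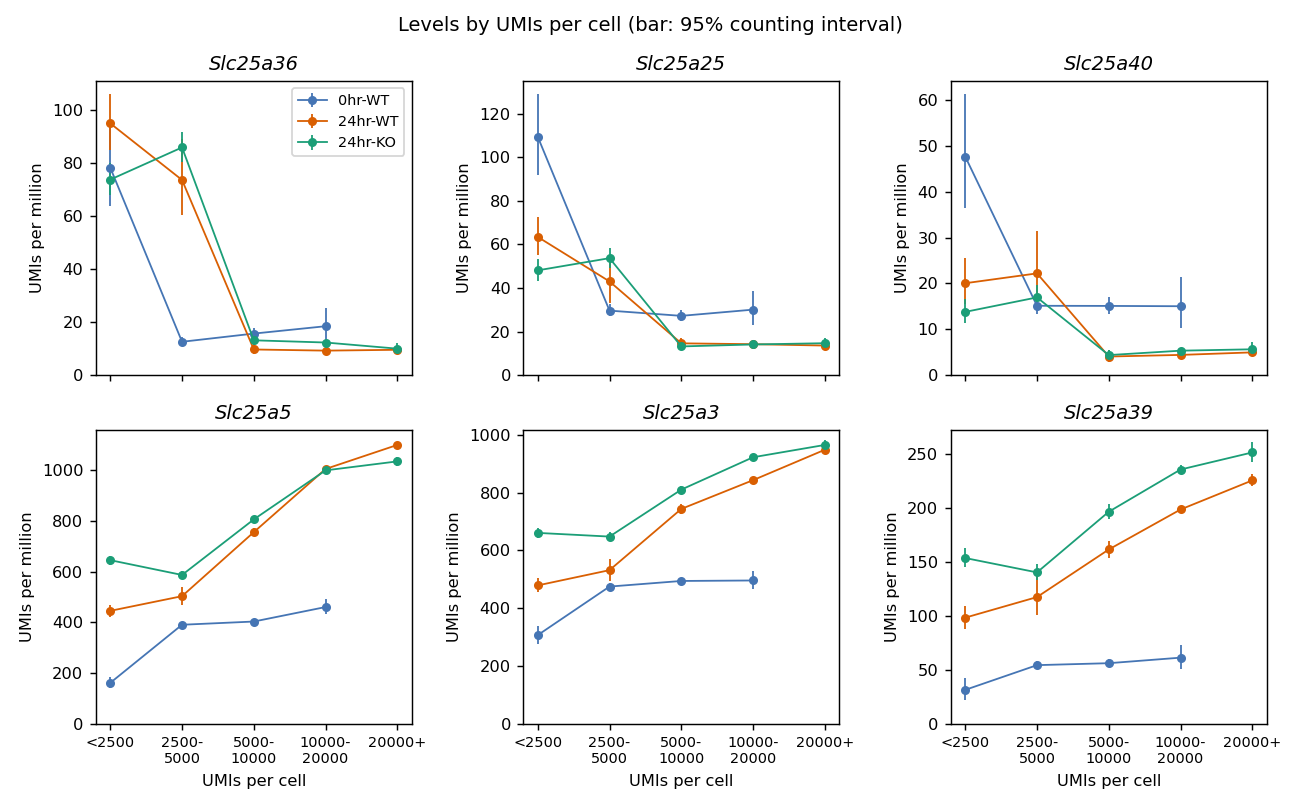
CPM of 6 members in bands of UMIs per cell, with a line for each library and bars for 95% counting intervals; 0hr-WT is not drawn at 20000 or more, where it had 4 cells. *Slc25a36*, *Slc25a25* and *Slc25a40* drop steeply above 5000 UMIs in the stimulated libraries, *Slc25a36* from 73.5 to 9.66 CPM in 24hr-WT. In 0hr-WT they drop above 2500 UMIs, *Slc25a36* from 78.1 to 12.6 CPM. *Slc25a5*, *Slc25a3* and *Slc25a39* climb with UMIs per cell, except that in 24hr-KO each is lower from 2500 to 5000 UMIs than under 2500. There *Slc25a5* goes from 646 to 587 CPM.

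To see whether carriers differ in dividing cells, stimulated cells of 20000 or more UMIs were split by their summed UMIs of *Mki67*, *Top2a*, *Birc5*, *Cdk1* and *Ccnb1*. Cells with 5 or more (226 in 24hr-WT and 98 in 24hr-KO) were set against cells with 0 (528 and 157), and cells in between were left out. This class is a range of a count, not a cell type. The family was higher in the former, with log2 ratios of 0.16 (0.13 to 0.19) and 0.13 (0.093 to 0.18), against medians of all genes of 0.058 in either library.

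The dicarboxylate carrier gene *Slc25a10* differed most in 24hr-WT among those described here, at 21.1 CPM in dividing cells and 4.24 in cells with 0, from 120 and 54 UMIs, a log2 ratio of 2.32 (1.84 to 2.81). In 24hr-KO it was at 11.9 and 5.39 CPM from 29 and 20 UMIs, with 1.14 (0.27 to 2.04). *Slc25a13* was at 20.1 and 7.77 CPM in 24hr-WT and 22.5 and 8.35 in 24hr-KO, with log2 ratios of 1.37 (0.97 to 1.77) and 1.43 (0.77 to 2.11). *Slc25a5* had 0.29 (0.25 to 0.33) and 0.26 (0.19 to 0.33). *Slc25a3* was level, at 0.017 (−0.030 to 0.064) and 0.011 (−0.065 to 0.086). The gene *Slc25a10*, which over whole libraries hardly differed between 0hr-WT and 24hr-WT, thus varied among stimulated cells. The members named in this paragraph were chosen after their values were seen.

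Other genes of carrier transport were set beside the family. Of 10 genes for the import of carriers, 6 were higher past the fold with stimulation, against 19.8% of all genes, and 0 lower, namely *Tomm40*, *Timm10*, *Tomm20*, *Tomm70a*, *Timm22* and *Timm9*. *Timm22*, the channel that inserts carriers, was at 29.5, 64.1 and 66.0 CPM in 0hr-WT, 24hr-WT and 24hr-KO, and *Timm10*, a chaperone of the intermembrane space, at 31.8, 107 and 89.4. In 24hr-KO 3 of the 10 were lower past the fold (*Timm10*, *Timm10b* and *Tomm20*), against 8.73% of all genes, and 0 higher. Of the outer membrane channels, *Vdac1* was higher with stimulation at 89.3, 238 and 231 CPM, and *Vdac2* and *Vdac3* were within the fold. Of 5 counted carriers without an *Slc25a* symbol, 0 passed the fold in either comparison. The nearest of them in 24hr-KO over 24hr-WT was *Mpc1*, at −0.16 (−0.19 to −0.13), or −0.29 from the median of all genes. *Ucp2*, the most abundant of them, was at 700.7, 466 and 525 CPM, above all members but *Slc25a5* and *Slc25a3* in the stimulated libraries and above every member in 0hr-WT.

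Some values carry limits of counting. At 95% identity over 200 bases or more, *Slc25a5*, *Slc25a36* and *Slc25a40* have pseudogene copies that the deposited tables do not count, so reads could have been lost or gained between copies. Among others, *Slc25a10*, *Slc25a11*, *Slc25a23*, *Slc25a25*, *Slc25a26*, *Slc25a33*, *Slc25a35*, *Slc25a36*, *Slc25a37*, *Slc25a46* and *Slc25a53* overlap a counted gene on the opposite strand in GENCODE M21.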

How the data were processed

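The members, gene lists, folds and alternatives were chosen with earlier results of these data known. The authors deposited whole-number counts of UMIs per gene and cell barcode, without normalization, for 3 libraries. The file headers name Cell Ranger 3.1.0, the submitters' processing notes the mm10 build. The study's methods name a 3′ kit and the labels a 5′ kit, which capture opposite transcript ends, and this could not be settled here.

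Counts of kept cells were summed per library and given as CPM with exact Poisson intervals. Ratios have exact binomial intervals, and a gene at 0 was set to 3 counts. Intervals cover counting error between these libraries only, and doublets were not removed. Genes under 100 UMIs over the 3 libraries were left out of the counts past a fold. 1 member and 1 marker gene are not reported here. The other members at 10 CPM or more in any library were named with values in all 3, the 8 highest in 24hr-WT and the 5 highest and 5 lowest ratios of each comparison in full. Barcodes shared between libraries were kept. Positions came from GENCODE M21 and promoters from RefSeq, and protein sequences were not used here. Calculations used Python 3.11.15, numpy 2.4.6, pandas 2.3.3, scipy 1.17.1 and matplotlib 3.10.9 and were tested on simulated data. The alternatives were median-ratio scaling, UMIs per cell, means of per-cell fractions, all barcodes, more than 1000 genes with under 10% mitochondrial UMIs, cells of 5000 to 20000 UMIs, cells thinned to 1400 UMIs, a minimum of 10 UMIs and other folds.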

Additional observations from a re-analysis of the deposited data

How the results depend on the processing

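For stimulation, the summed log2 ratio of 0.81 was 0.95 with median-ratio scaling, 2.17 in UMIs per cell, 0.71 as the mean of per-cell fractions, 0.77 in cells of 5000 to 20000 UMIs and 0.71 in cells thinned to 1400 UMIs. The members' median of 0.0067 was 1.36 in UMIs per cell, 0.19 as per-cell fractions and −0.0082 in cells of 5000 to 20000 UMIs. After thinning, 5 rather than 8 members were higher past the fold, and 18.1% rather than 19.8% of all genes.

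For IFT20-KO over WT, the summed log2 ratio of −0.0026 was −0.16 with median-ratio scaling, −0.63 in UMIs per cell, 0.0092 as per-cell fractions, 0.00059 over all barcodes, −0.011 with the stricter filter and 0.056 in cells of 5000 to 20000 UMIs. The median of 0.071 was −0.089 with median-ratio scaling and −0.56 in UMIs per cell. Members lower past the fold were 1 in cells of 5000 to 20000 UMIs and 5 after thinning, against 3. The shares of all genes lower were 6.66%, 15.2% and 8.73% in the same order. With a fold of 0.5 on the log2 scale 2 members were higher and 0 lower, against 7.45% and 2.58% of all genes. In UMIs per cell, *Slc25a13* was at −0.16 and *Slc25a23* at −0.14, both above the median of all genes there, −0.50. The cause of these changes was not tested, other than that the scalings shift all genes alike by construction. Of the 26 members at 10 CPM or more in any library, 19 kept 1 sign under every alternative for stimulation and 6 for IFT20-KO over WT, and 24 and 11 did so without UMIs per cell. No paired analysis was possible because each group has 1 library. With 1 library per group, culture, capture and depth cannot be told apart from treatment or genotype, and members under 10 CPM rest on few UMIs.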
